A study of Mus musculus and Homo sapiens with 9 samples.

Results

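The genes described here encode the machinery that starts and carries out transcription: the subunits of Mediator, of RNA polymerases I, II and III, the TBP-associated factors (TAFs), the general transcription factors of the GTF2 and GTF3 series, and the elongation factor TFIIS. They were chosen by symbol alone (Med, Polr1 to Polr3, Taf, Gtf2, Gtf3 and Tcea followed by their numbers or letters), which gave 108 of 21887 protein-coding genes in the RefSeq annotation of GRCm38.p6, the mouse build whose coordinates are those of mm10. Thymine DNA glycosylase (TDG) and p53 had been located by ChIP-seq in B16, a mouse melanoma line, in cells with the label Tdg HA knockin and no treatment named. The HA antibody was used in 1 library and the p53 antibody in another. The other 7 samples of the series (input, IgG, the HA antibody in WT cells, the p53 antibody in Trp53 KO cells, and 3 from the human line H1299) were not analysed here, so each peak list stands for 1 library without a replicate. Whether a peak in the HA list depends on the tag was not tested, whether the line is 1 clone is not stated in the labels, and peak lists hold no expression values against which the melanoma label could be checked.

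As background, RNA polymerase I makes the large ribosomal RNA precursor, RNA polymerase II makes messenger RNA, and RNA polymerase III makes transfer RNA, 5S ribosomal RNA and other small RNAs. At a promoter of RNA polymerase II, TFIID (TBP with its TAFs) recognises the DNA, TFIIA, TFIIB, TFIIE, TFIIF and TFIIH assemble with the polymerase, and Mediator passes signals from activators to it through a head, a middle and a tail module and a detachable kinase module. TDG removes thymine and oxidised forms of methylcytosine from DNA, the first step of a repair pathway through which methylated CpG can be restored to unmethylated CpG.

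TDG peaks lay at 21 of the 108 genes (19.4%, exact 95% binomial interval 12.5 to 28.2%), counting summits within 1 kb of either gene end. Among the 21523 other protein-coding genes on the same 20 chromosomes the share was 12.4%, so the share of the set was 1.57 times the background. Most genes of the set have CpG-rich promoters, and among these the share was not above the background. Of the 77 with a CpG-rich promoter, 14 (18.2%, interval 10.3 to 28.6%) had a TDG peak, against 23.1% of the other genes with such promoters. Of the 15 with another promoter, 5 had a peak, against 4.43% of other genes of that kind, a split made after the data had been seen. These intervals cover counting error only, and since the set was chosen with results of these data known, no test of it was made.

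The genes with a peak were spread over most of the complexes. Mediator had 6 of 30: Med6, Med11 and Med22 of the head, Med21 of the middle, and Med16 and Med29 of the tail. Among the RNA polymerase subunits there were 9 of 28, among them Polr1a of RNA polymerase I, Polr1d shared by I and III, Polr2b and Polr2i of II, Polr2f and Polr2h shared by all 3 enzymes, and Polr3f and Polr3k of III. The TAF genes had 2 of 24, which were Taf8 of TFIID and Taf1b of SL1, the promoter factor of RNA polymerase I. TFIIA, TFIIB, TFIIE, TFIIF and TFIIH had 2 of 13, namely Gtf2a1 and Gtf2f1. Gtf3c2 of TFIIIC was the only one of 7 TFIIIA and TFIIIC genes, and Tcea1 the only one of 3 TFIIS genes. None of the 4 genes of the Mediator kinase module matched by the rule (Med12, Med12l, Med13 and Med13l), of the 5 TFIIH genes or of the 3 TFII-I family genes had a peak at an end. With so few genes, a lack of peaks in any of these groups could not be told from the 12.4% of other genes.

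**Figure D1:**
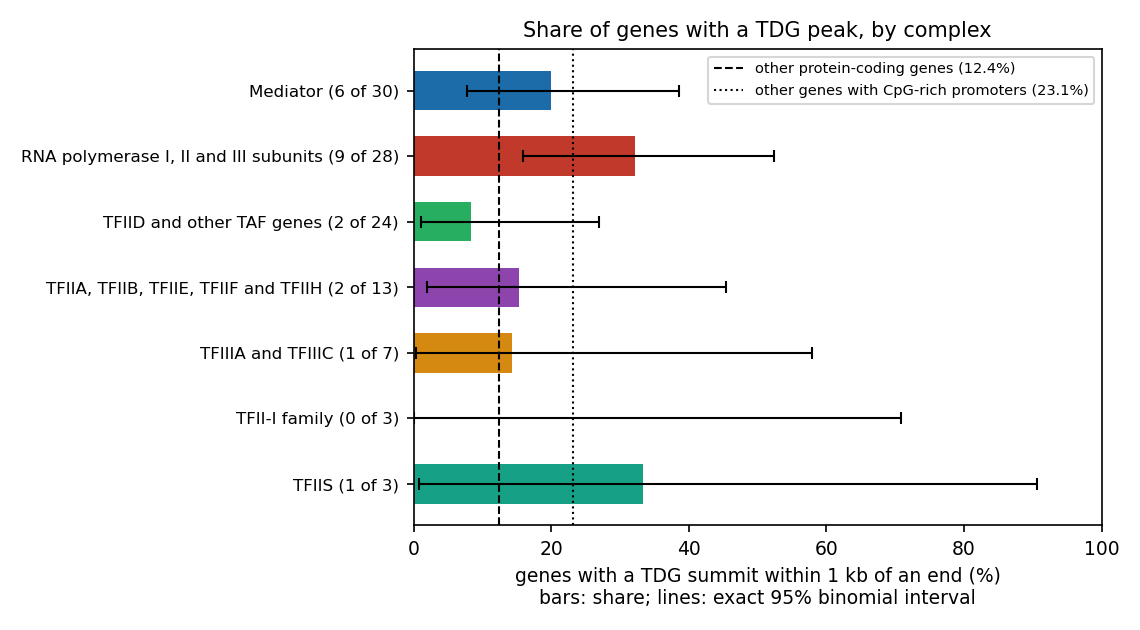
Share of genes with a TDG summit within 1 kb of an end (horizontal axis, %) for each group of complexes, with exact 95% binomial intervals as lines. The polymerase subunits (9 of 28) are the only group whose interval lies wholly above the dashed line of other protein-coding genes at 12.4%, and it spans the dotted line of other genes with CpG-rich promoters at 23.1%. With peaks at the end of a single gene the 9 become 2.

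The share for polymerase subunits was 32.1% with an interval of 15.9 to 52.4%, that for Mediator 20% (7.71 to 38.6%) and that for the TAF genes 8.33% (1.03 to 26.997%). These intervals overlap, and the differences between the groups were not tested. The polymerase count of 9 fell to 2 of 28 with peaks at the end of a single gene, where the background was 8.37%, and to 5 with the median fold enrichment of the list as a lower limit, which also took Mediator from 6 to 2.

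The reference promoters of 5 genes show how unlike the sequences under or beside these peaks were. Each run below ends at the base before the annotated start of the gene, reads 5′ to 3′ on the strand of the gene (RefSeq, GRCm38.p6) and stops at the first base of any neighbouring gene. Capitals mark the matches, on either strand, to 9 short motifs, none of which contains another: the GC box core GGGCGG, the NF-Y core CCAAT, the TATA box core TATAAA, the cAMP response core TGACGT, the ETS core CCGGAA, the E-box core CACGTG, the NRF1 core GCATGCG, the palindrome TCGCGA and the YY1 core ATGGCG. The genes were those with the highest fold enrichments from different complexes or modules that had a promoter in the table.
Med6, chr12:81595009-81595258, minus strand: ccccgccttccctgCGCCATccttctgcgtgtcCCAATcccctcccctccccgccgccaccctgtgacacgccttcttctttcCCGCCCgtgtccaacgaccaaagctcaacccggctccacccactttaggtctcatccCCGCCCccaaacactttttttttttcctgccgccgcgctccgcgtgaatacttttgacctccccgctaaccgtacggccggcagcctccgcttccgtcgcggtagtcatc
Polr2h, chr16:20717747-20717825, plus strand: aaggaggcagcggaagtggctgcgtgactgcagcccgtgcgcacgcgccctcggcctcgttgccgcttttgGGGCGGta
Med16, chr10:79908939-79909188, minus strand: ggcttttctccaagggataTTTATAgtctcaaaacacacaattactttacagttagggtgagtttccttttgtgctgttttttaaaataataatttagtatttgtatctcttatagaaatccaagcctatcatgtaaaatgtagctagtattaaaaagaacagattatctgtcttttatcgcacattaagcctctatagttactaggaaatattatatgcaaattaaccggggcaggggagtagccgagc
Taf1b, chr12:24498331-24498580, plus strand: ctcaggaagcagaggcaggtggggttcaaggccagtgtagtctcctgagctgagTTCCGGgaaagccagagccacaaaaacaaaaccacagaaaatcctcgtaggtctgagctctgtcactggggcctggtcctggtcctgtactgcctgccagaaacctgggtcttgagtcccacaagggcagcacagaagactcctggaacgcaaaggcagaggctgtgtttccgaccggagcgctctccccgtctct
Polr3k, chr2:181864110-181864359, plus strand: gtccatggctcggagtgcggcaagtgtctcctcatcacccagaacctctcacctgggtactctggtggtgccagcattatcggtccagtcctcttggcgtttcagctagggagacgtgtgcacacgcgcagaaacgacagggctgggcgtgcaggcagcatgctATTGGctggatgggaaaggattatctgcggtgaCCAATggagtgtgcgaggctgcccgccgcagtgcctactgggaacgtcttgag

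The Med6 run held 24 CpG dinucleotides in 250 bases, and 166 of these bases lay under its TDG peak. The Polr2h run is short because the neighbouring gene Clcn2 begins 80 bases away on the other strand. It held 10 CpG in 79 bases, all of them under the peak. The Polr3k run held 14 CpG in 250 bases and lay wholly under the peak. Med16 and Taf1b held fewer CpG, 3 and 7 in 250 bases, and only 6 bases of each lay under the peak, whose summit lay after the start of the gene. In G plus C content Med16 stood apart at 33.2%, while Taf1b (57.6%) was close to Polr3k (59.6%), with Med6 at 63.2% and Polr2h at 69.6%. For Polr1d the start site in the promoter table lies 631 bases inside the annotated gene, so no run is shown.

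The value given for each peak is the authors' fold enrichment, the height of the summit over the peak caller's local background. Over the 21 genes, taking the higher peak where there were 2, it had a median of 5.73 with quartiles of 5.07 and 6.72 and a range of 3.86 to 8.07. Other genes with a peak at an end had a median of 5.99 and quartiles of 5.19 and 6.94 (n = 2668). At or above that median lay 10 of the 21 genes. Counting only peaks in the upper part of the list, from its median fold enrichment on, left 10 of the 108 genes (9.26%) against 6.69% of other genes. The quartile ranges of the set and of the other genes overlapped over most of their length. Reads at the summit were recovered from the deposited values and ranged from 18 to 32, with a median of 24.5 over the 22 peaks of the set and 24 over all 3410 TDG peaks.

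**Figure D2:**
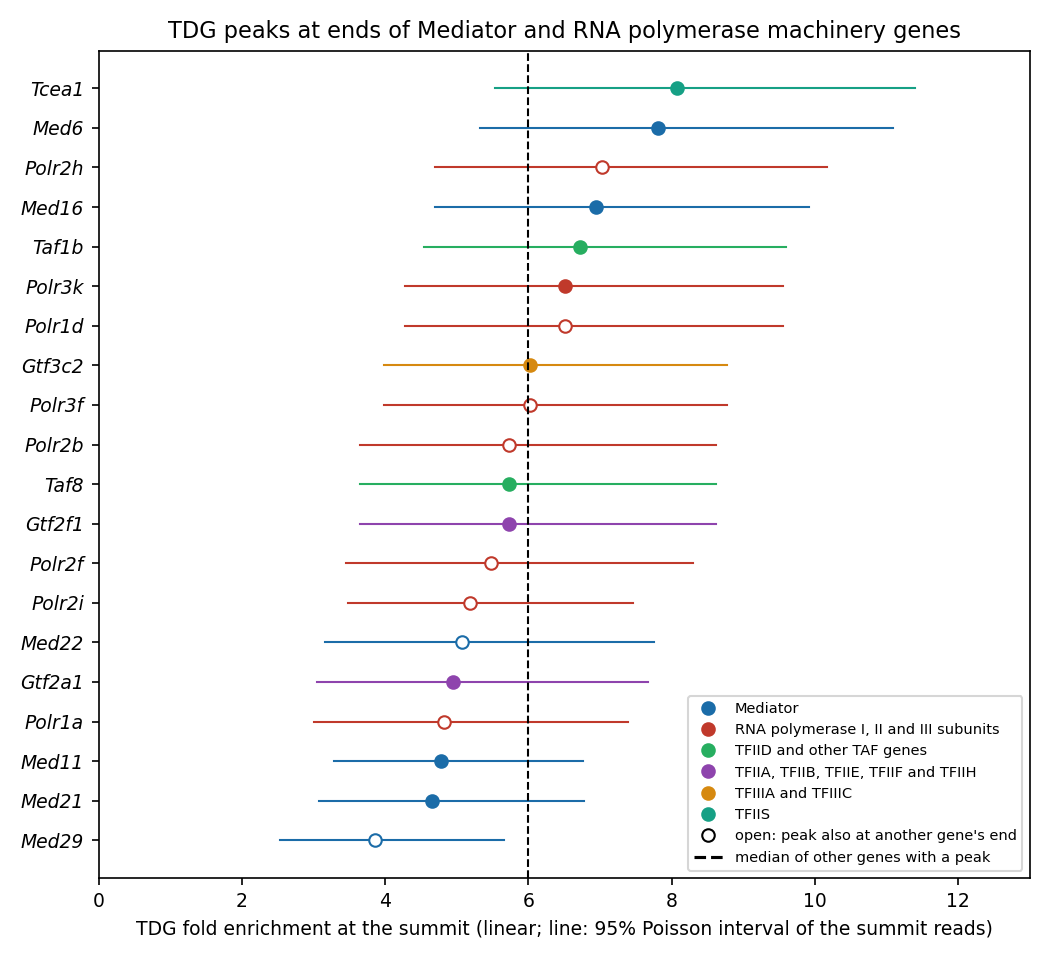
TDG fold enrichment (horizontal axis, linear) of the higher peak of 20 of the 21 genes, with the 95% Poisson interval of its summit reads carried over to the fold as a line. Points run from 3.86 at Med29 to 8.07 at Tcea1, the dashed line at 5.99 is the median of other genes with a peak, and the intervals all overlap one another.

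Among the elongation and polymerase III genes, Tcea1, which encodes TFIIS, the factor that rescues arrested RNA polymerase II by stimulating cleavage of its transcript, had the highest fold enrichment of the set. Its peak (chromosome 1, 4857490 to 4857783) had a fold enrichment of 8.07 and a −log10 q of 14.3. The summit held 30 reads (95% Poisson interval 20.2 to 42.8) and lay 55 bases from the lower end of the gene (4857694 to 4897909). Polr3k encodes the small subunit that takes part in RNA cleavage and termination by the enzyme. Its peak (chromosome 2, 181864096 to 181864392) reached 6.51-fold with 24 reads (15.4 to 35.7), and the summit lay 122 bases before the start of the gene (181864360 to 181870830). Polr3f, whose product belongs to the subcomplex that opens DNA at initiation, had a peak on the same chromosome (144527163 to 144527947) at 6.02-fold with 25 reads, 63 bases before the start of the gene (144527745 to 144541779).

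Of the Mediator genes, Med6, a head subunit, had the highest value. Its peak (chromosome 12, 81595093 to 81595435) had 7.81-fold enrichment, a −log10 q of 13.4 and 29 reads (19.4 to 41.6), with the summit 210 bases before the start of the gene (81573557 to 81595008). Med16, a tail subunit, had a peak (chromosome 10, 79908399 to 79908944) at 6.94-fold with 28 reads (18.6 to 40.5), whose summit lay 213 bases inside the gene (79894706 to 79908938). The other 4 Mediator peaks were lower, and in fold all of them stood under the median of the set. Med22 had 5.07-fold (19 reads), Med11 had 4.79-fold (30 reads), Med21 had 4.66-fold (25 reads) and Med29 had 3.86-fold (24 reads). Med11 thus had as many summit reads as Tcea1 at a lower fold, because the local background there was 5.00 reads against 2.56 at Tcea1. Med29 also had a local background of 5.00 reads, and its −log10 q of 4.92 was the lowest of the set.

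The subunits shared between polymerases lay between 5.47-fold and 7.03-fold. Polr2h encodes a small subunit common to all 3 enzymes, and its peak (chromosome 16, 20717498 to 20717995) had 7.03-fold enrichment, a −log10 q of 11.5 and 26 reads (17.0 to 38.1), 115 bases before the start of the gene (20717826 to 20722272). Polr2f, another common subunit, had 5.47-fold with 20 reads on chromosome 15 (79140900 to 79141515). Polr1d, which encodes a subunit of the assembly platform of polymerases I and III, was the only gene of the set with 2 peaks at an end. The higher one (chromosome 5, 147076242 to 147076722) reached 6.51-fold with 24 reads, 157 bases before the start of the gene (147076715 to 147111361). The other (147077433 to 147077767) reached 5.21-fold with 19 reads (11.4 to 29.7), 826 bases inside it.

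The subunits specific to polymerase I or II had values at or under the median of the set. Polr2b encodes the second largest subunit of RNA polymerase II, which forms one side of its active site. Its peak (chromosome 5, 77310217 to 77310587) reached 5.73-fold with 21 reads (12.999 to 32.1), and its summit lay 22 bases before the start of the gene (77310484 to 77349328), the closest of the set. Polr2i had 5.19-fold (27 reads, local background 4.00 reads) and Polr1a, which encodes the largest subunit of RNA polymerase I, had 4.83-fold (19 reads). Polr2a, the gene of the largest subunit of RNA polymerase II, had no peak at an end.

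Initiation factor genes completed the set. Taf1b encodes a TAF of SL1 that resembles TFIIB, and its peak (chromosome 12, 24498575 to 24498893) had 6.72-fold enrichment, a −log10 q of 11.1 and 28 reads (18.6 to 40.5), 69 bases inside the gene (24498581 to 24558571). Gtf3c2, a subunit of TFIIIC, the factor that binds the internal promoters of transfer RNA genes, had a peak (chromosome 5, 31179609 to 31180242) at 6.02-fold with 25 reads, 26 bases before the start of the gene (31156006 to 31180144). Taf8, a TFIID subunit with a histone fold, had a peak (chromosome 17, 47501956 to 47502425) at 5.73-fold with 21 reads, 162 bases inside the gene (47483364 to 47502321). Gtf2f1, which encodes the larger subunit of TFIIF, had the same fold and read number as Taf8 in a peak 115 bases before its start on the same chromosome (57011478 to 57011963). Gtf2a1, which encodes the large TFIIA precursor, had 4.95-fold with 18 reads (10.7 to 28.4), the fewest of the set. Carried over to the fold, the Poisson intervals of all 21 genes overlap one another, from Tcea1 (5.54 to 11.4) to Med29 (2.53 to 5.67), so their order is not resolved at this depth.

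All 19 peak genes with a known strand had the higher peak at the start of the gene rather than at its stop (exact 95% binomial interval 82.4 to 100%). Tcea1 was among those with no entry in the promoter table that gives the strand. Among other protein-coding genes with a peak and a strand, 2147 of 2242 (95.8%, interval 94.8 to 96.6%) also had it at the start, so the position is common to TDG peaks at gene ends. Summits of the set lay between 333 bases before (Polr1a) and 279 bases after (Gtf2a1) the start, with 13 of 19 before it. In the other genes 53.1% lay before the start. The called peak covered the annotated start itself in all of these genes except Med6, Gtf2f1 and Gtf2a1. Counting gene starts alone, 19 of 92 genes of the set with a strand had a TDG peak (20.7%) against 12.6% of other genes.

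**Figure D3:**
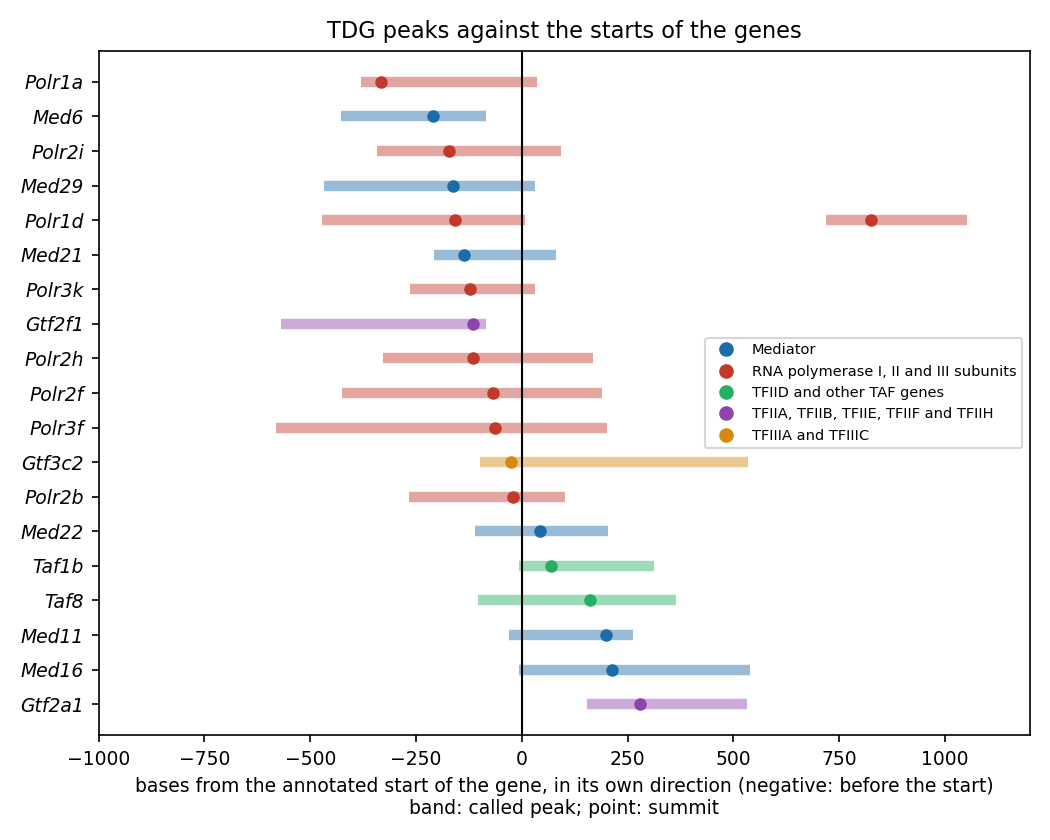
Called peaks (bands) and summits (points) of the 19 genes with a known strand, in bases from the annotated start and in the direction of the gene. Summits of the higher peaks lie between −333 at Polr1a and 279 at Gtf2a1, and Polr1d alone has a second peak, at 826 bases.

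Several of these starts were shared with a neighbouring gene. For 9 of the 21 genes (42.9%, interval 21.8 to 66.0%) every peak at an end also lay within 1 kb of an end of another protein-coding gene, as it did for 866 of 2668 other genes with a peak (32.5%, interval 30.7 to 34.3%). The intervals overlap. Counted by peak, 10 of 22 peaks of the set were shared in this way (45.5%, interval 24.4 to 67.8%) against 448 of 2278 peaks of other genes (19.7%, interval 18.1 to 21.4%), and these intervals do not overlap. The counts differ because a shared peak stands for 2 or more genes in the first and for 1 peak in the second. The count by peak does not set like against like. A peak entered the set through any of its genes, so a shared peak had more ways to enter. Each peak of other genes was counted once. The count by gene, where the intervals overlap, is the like comparison. Of the 9 genes, 7 were polymerase subunit genes: Polr2h with the chloride channel gene Clcn2, Polr1d with Lnx2, Polr3f with Dzank1, Polr2b with Noa1, Polr2f with 1700088E04Rik, Polr2i with the tubulin cofactor gene Tbcb, and Polr1a with Ptcd3. The others were Med22, which starts 43 bases from the ribosomal protein gene Rpl7a, and Med29, which starts 306 bases from Paf1, a gene of the PAF elongation complex. The 8 pairs with both strands known lay on opposite strands with 43 to 306 bases between their starts, and Noa1 had no strand in the table. In these pairs a peak cannot be given to one gene rather than the other. Counting only peaks at the end of a single gene left 12 genes of the set (11.1%) against a background of 8.37%.

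CpG-rich promoters were frequent in the whole set. They were defined over a window from 250 bases before to 50 bases after the start, with G plus C of at least 50% and CpG observed over expected of at least 0.6. By this measure 77 of 92 genes with a promoter in the table (83.7%) were CpG-rich, against 46.1% of other genes. Within the set, 14 of 19 genes with a TDG peak (73.7%) and 63 of 73 without one (86.3%) were CpG-rich. The median CpG ratio was 0.848 with a peak and 0.843 without. In the other genes the same ratio was 0.810 with a peak and 0.504 without. Promoters of the set thus lay mostly in the CpG-rich range whether or not a peak had been called. How much of the difference between 19.4% and 12.4% goes with CpG content was not tested beyond the split by promoter class.

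**Figure D4:**
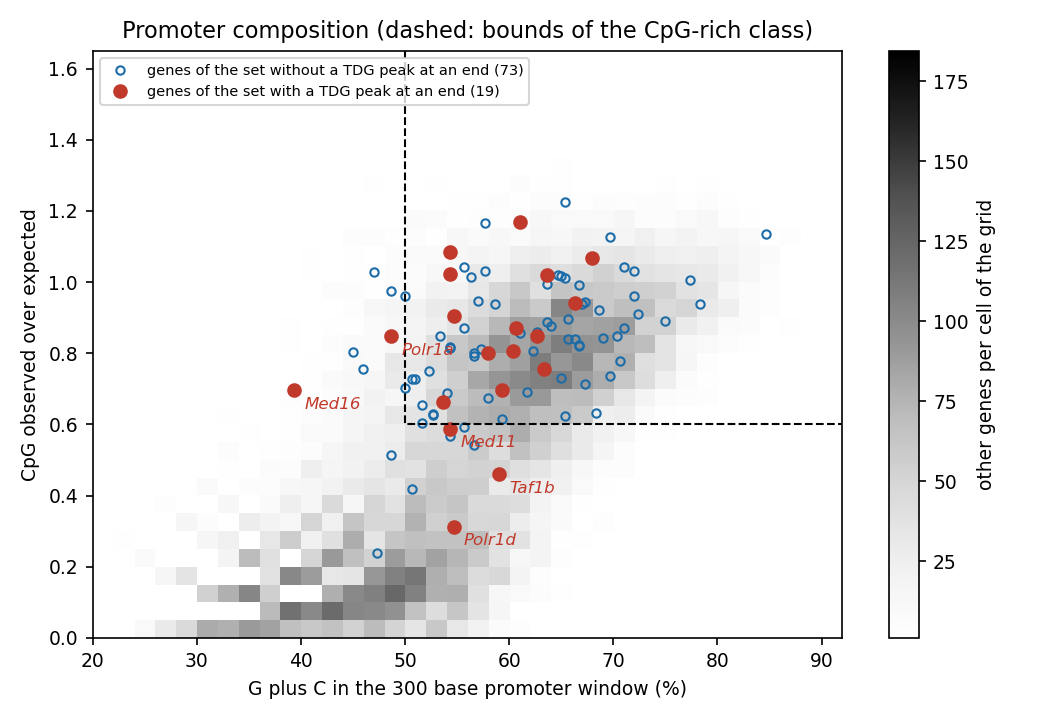
G plus C content (horizontal axis, %) and CpG observed over expected (vertical axis) of the promoters of the set, filled red with a TDG peak (19) and open blue without (73), over the density of other genes in grey. Polr1a, Med16, Med11, Taf1b and Polr1d are the 5 genes with a peak outside the dashed bounds of the CpG-rich class.

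Of the motifs, GGGCGG, the core of the GC box bound by Sp1, was found in 8 of 19 promoters of the set with a peak (42.1%), in 50 of 73 without one (68.5%) and in 46.3% of all 17492 promoters. In other genes the direction was the reverse, with 75.5% of promoters with a peak and 42.5% of those without. Of these other genes, 81.7% with a peak and 40.8% without were CpG-rich. Within CpG-rich promoters of other genes, GGGCGG was in 81.6% with a peak and in 76.8% of all, so the contrast was much smaller there. In CpG-rich promoters of the set it was in 8 of 14 with a peak (57.1%) and in 72.7% of all. The 19 include Polr1d, whose window lies inside the gene and overlaps neither of its peaks. The difference within the set was not tested. CCGGAA, a core of ETS factor sites, occurred in 48.9% of the 92 promoters of the set, 8 of the 19 with a peak among them, and in 19.1% of all promoters. Over all promoters the shares of the set were also higher for CACGTG (19.6% and 7.91%), TGACGT (13.04% and 8.71%), GCATGCG (9.78% and 4.50%), TCGCGA (4.35% and 3.45%) and ATGGCG (19.6% and 11.2%), and lower for CCAAT (32.6% and 39.2%) and TATAAA (11.96% and 13.3%). Since the set is rich in CpG, the same shares were taken within CpG-rich promoters, 77 of the set and 7926 of other genes. There the set was higher for CCGGAA (48.1% and 31.2%), CACGTG (20.8% and 11.6%) and TATAAA (11.7% and 4.74%), the last of which had been close to the share of all promoters. The shares lay closer together for GCATGCG (10.4% and 7.81%), ATGGCG (20.8% and 18.4%) and TGACGT (14.3% and 13.5%). They were lower in the set for TCGCGA (5.19% and 6.69%), which also turned, GGGCGG (72.7% and 76.8%) and CCAAT (33.8% and 37.5%). A match describes the letters only and shows no binding.

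The share of other genes with a TDG peak differed between chromosomes. All 3 genes of the set on chromosome 12 (Med6, Taf1b and Gtf2a1) and both on chromosome 6 (Polr1a and Med21) had a TDG peak, and these are the chromosomes where other genes had peaks most often, at 24.0% and 25.5%. None of the 5 on the X chromosome (Med12, Med14, Taf1, Taf7l and Taf9b) had one, where only 0.104% of other genes did. Weighting the background by the number of genes of the set on each chromosome gave 12.04%.

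**Figure D5:**
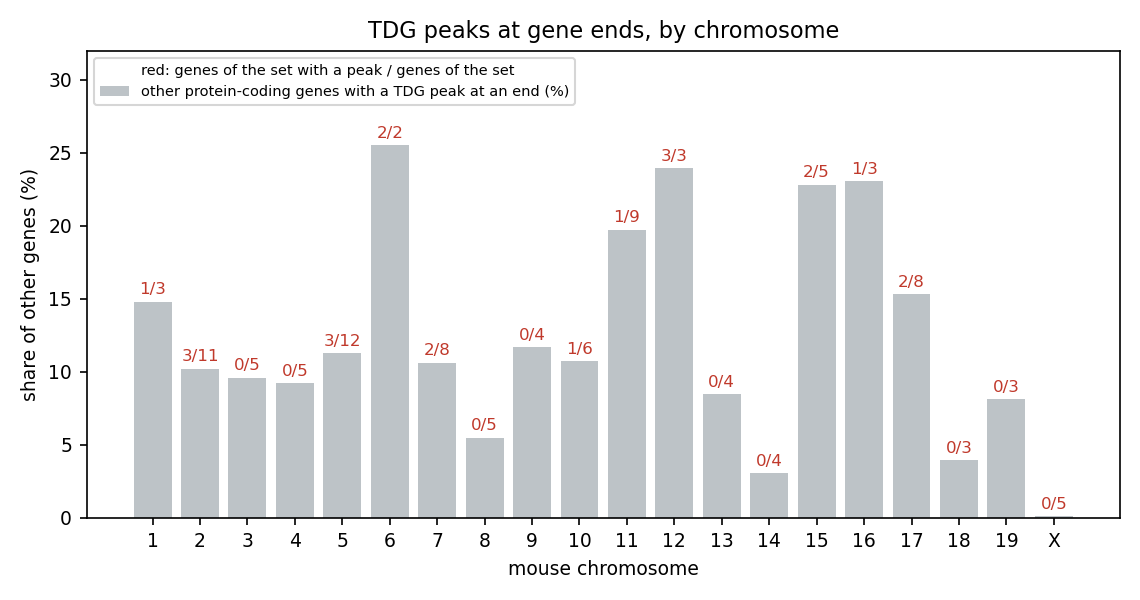
Share of other protein-coding genes with a TDG peak at an end on each chromosome (bars, %), with the genes of the set that had a peak out of all genes of the set in red above each bar. The 3 of 3 on chromosome 12 and 2 of 2 on chromosome 6 stand on the bars at 24.0% and 25.5%, and the 0 of 5 on the X chromosome on one at 0.104%.

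The other 87 genes had no TDG summit within 1 kb of an end, and the median distance from their nearer end to the closest summit was 96153 bases. No gene lay just outside the limit: after Polr1a at 333 bases, the next were Gtf2ird2 at 2085 bases and Gtf2i at 2721 bases. Both belong to the TFII-I family of multifunctional DNA-binding factors, and their peaks lay inside the gene on chromosome 5 at 5.14-fold (134184280 to 134184656) and 4.95-fold (134314888 to 134315176). Within 10 kb lay a further 6: Med10 (6035 bases, in the gene body), Polr1e (6118), Taf6 (6673), Polr3gl (6805), Med25 (6848) and Taf13 (9128). Summits in the gene body over 1 kb from both ends occurred in 4 genes of the set (3.70%), among them Gtf2ird2, Gtf2i and Med10, against 3.14% of other genes.

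No p53 peak was assigned to any of the 108 genes, by a summit in the gene or by the gene being nearest to one. A count of 0 allows a share of up to 2.78%, and the share in other protein-coding genes was 0.52%, so a share at the background could not have been told from 0 in a set of this size. With gene ends within 10 kb of a p53 summit in place of that rule, the count was again 0, against 0.4% of other genes. The closest p53 summit was 187044 bases from Taf13. TDG peaks at the 21 genes therefore stood without a p53 peak assigned to the same gene.

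Genes that act with this machinery or in mitochondrial transcription but bear other names had TDG peaks at an end in 14 of 61 cases (22.95%, interval 13.2 to 35.5%), with a median of 6.21-fold. The 61 include 4 genes of mitochondrial transcription, 2 of them with a peak. The share of the 61 was above the 12.4% of other protein-coding genes, and the difference was not tested. The 61 were not split by promoter class, so the 23.1% of other genes with CpG-rich promoters is not a like comparison. Factors of pausing and elongation had 6 of 18. Ccnk, which encodes the cyclin of the elongation kinases CDK12 and CDK13, had the highest value at 12.2-fold with 48 reads, in a peak that also lay at an end of Setd3. Ccnt2 (9.37-fold), Cdk9 (8.85-fold) and Ccnt1 (3.90-fold) encode parts of the kinase P-TEFb, which releases paused RNA polymerase II. The elongation factor genes Ell2 and Ell had 6.25-fold and 5.99-fold. In the PAF complex Ctr9 (8.07-fold) and Paf1 (3.86-fold, the peak shared with Med29) had a peak, in the Mediator kinase module Cdk19 (6.77-fold), and in RNA polymerase III regulation the repressor gene Maf1 (6.51-fold) and Brf1 (4.83-fold). Tfam (6.16-fold) and Tfb2m (6.02-fold) of mitochondrial transcription and Ssrp1 of the histone chaperone FACT (5.21-fold, 958 bases from its stop) completed the 14. The peak of Maf1 also lay at an end of Sharpin, that of Tfb2m at an end of Cnst and that of Ssrp1 at an end of Tnks1bp1. The TBP family, the 5 further TFIIH genes, SNAPc, the 5 genes of RNA polymerase I and the 7 of polymerase assembly and CTD phosphatases had none. Each of these groups is too small for its lack of peaks to be told from the 12.4% of other genes. Cdk8, the gene of a Mediator kinase, was the only one of the 61 with a p53 peak assigned (chromosome 5, 146261036 to 146261288, 3.42-fold), which lay inside the gene 30356 bases from its nearer end. A p53 peak was assigned to 0.52% of other protein-coding genes, and 1 of 61 cannot be told from that share.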

How the data were processed

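Fold enrichment ratios, −log10 p and −log10 q values and scores were taken from 2 narrowPeak lists (3410 TDG and 126 p53 peaks) as the authors deposited them, and the score only repeats the −log10 q, multiplied by 10 and truncated. Per the submitters' processing notes, the tools were MACS2, Bowtie2, Trim Galore, Picard, ChIPseeker and deepTools, with mm10. For versions, control library and calling threshold, the sources used here give nothing. Folds were used only within their list. Summit reads and local backgrounds were recovered by inverting how MACS2 computes the fold and the Poisson p, and the p came back within 0.02 for 3409 TDG peaks. This step assumes a constant (pseudocount) of 1 added to both sides of the fold. On 1480 simulated summits, made with the same formulas, it gave back the known reads for 100% of them. That checks the arithmetic only and cannot show which settings the authors used. No library total is in the lists, so depth is known only as reads at summits. Python 3.11.15, pandas 2.3.3 and scipy 1.17.1 were used. Genes came from RefSeq GRCm38.p6, and strand and promoters from its promoter table, which matched 92 of 108 genes and 17492 of 21887. Where a gene had several promoters, the one closest to its annotated start was used. The p53 peaks went to genes holding the summit and to the nearest gene. The genes, cofactor list and alternatives were chosen with earlier results of these data known. The rule for named genes was every gene of the set with a peak at an end or within 10 kb, and every cofactor with a peak at an end. Polr2a, the Mediator kinase module, the genes of the X chromosome and Cdk8 were named after their values were seen. Intervals are exact 95% binomial or Poisson intervals and cover counting error only. The values of 1 gene of the set are not reported here, and it enters counts and medians only.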

Additional observations from a re-analysis of the deposited data

How the results depend on the processing

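With 1 library per protein there is no replicate error. No paired analysis was possible because each group had 1 library. The count of 21 genes with a TDG peak became 10 with the median fold enrichment of the list as a lower limit (ratio of the shares 1.38), where Polr2b, Taf8 and Gtf2f1 fell just under the limit, and 12 with peaks at the end of a single gene. It lay between 14 and 23 under the other alternatives, which were chosen with earlier results of these data known. The 14 is out of the 77 genes with CpG-rich promoters alone. The ratio to the background share of 1.57 fell to 0.787 among CpG-rich promoters, and rose to 7.53 (5 genes) among the rest, a split added after the data had been seen. The cause was not tested. Under the other alternatives the ratio lay between 1.33 and 1.76. With the counting error of the set carried over, the interval of the main ratio was 1.005 to 2.27. It included 1 with the 3 kb window (0.969 to 2.09) and with any base of the peak within 1 kb (0.981 to 2.22). The same held for the median fold limit (0.677 to 2.45) and for peaks at the end of a single gene (0.702 to 2.22). Under the rest of these other alternatives the interval lay above 1. With a −log10 q of at least 5, Med29 alone was lost. The share of genes with a peak at or above the median of other genes was 47.6% by fold or −log10 q and 47.8% with a 3 kb window, and the cofactor count was 12 to 15. The p53 count of 0 was the same under both alternatives. Of 42 counts by complex, 36 stayed within 1.5 times and 6 moved, among them the polymerase subunits (9 to 2 and 5) and Mediator (6 to 2).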

Other observations

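The 15 genes of the set whose promoters were not CpG-rich had TDG peaks at an end in 5 cases (33.3%, exact 95% binomial interval 11.8 to 61.6%), against 4.43% of other genes with such promoters. This split was looked at after the data had been seen and was not tested. The 5 were unlike one another. Med11 (CpG observed over expected 0.588) and Polr1a (G plus C 48.7%) lay just outside the bounds of the class, while Med16 (G plus C 39.3%), Taf1b (CpG ratio 0.460) and Polr1d (0.312) lay further out. At Med16 and Taf1b the summit was after the start, 213 and 69 bases into the gene, and at Polr1d the window used lies inside the gene, where it overlaps neither of its peaks.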
